A study of Gallus gallus with 6 samples.

Results

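The genes described here are 9 genes of the Sonic hedgehog (SHH) signalling pathway and of the axial midline, the floor plate and notochord that run along the middle of the embryo. They are the ligand gene SHH, the receptor genes PTCH1 and SMO, the transcription factor genes GLI1, GLI2 and GLI3, the antagonist gene HHIP, and the midline regulators FOXA2 and NOTO. They were chosen by chicken gene symbol and not by their values, although earlier results of these data were known. All 9 were found among the 24098 genes measured, and all 9 were among the 13311 genes tested, those whose mean reached 1 FPKM (reads per kilobase of gene and per unit of library depth).

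The RNA came from whole chicken embryos at Hamburger-Hamilton stage 10, when the neural tube is closing and the first somites have formed. The study compared 3 libraries of embryos treated with zinc oxide (ZnO) nanoparticles, called ZnO 1 to 3, with 3 libraries of control embryos, called control 1 to 3. The labels give no strain, dose, route or length of exposure, and they do not say whether a library is a single embryo or a pool. A p-value here is set against the spread between these libraries, part of which may be technical. In the stage label the incubation window opens at 34 hours and closes at 42 to 44 hours for ZnO libraries, against 39 to 41 hours for controls, so a difference in age and the treatment cannot be told apart if these ends are real ages. The series title is about oxidant stress and the cranial neural crest and does not name the hedgehog pathway.

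As background, SHH is secreted by the notochord and floor plate and spreads to the neural tube and somites. Without ligand, PTCH1 keeps SMO inactive. When SHH binds PTCH1, SMO signals through the primary cilium, GLI2 and GLI3 act as activators rather than repressors, and target genes are transcribed. PTCH1, GLI1 and HHIP are themselves targets, which is why their transcripts are widely read as a measure of pathway activity. PTCH1 and HHIP bind the ligand and limit its spread. FOXA2 is needed to form the floor plate and notochord and is also active in the gut endoderm, as is SHH. NOTO is a homeobox gene of the node and notochord.

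The 6 libraries had depths of 18208501 to 19843561 reads, computed from the steps of the FPKM values, and the genes described here had 95 to 7405 reads each. Of markers of tissues expected in a whole embryo, all 6 of the axial mesoderm list, 8 of 10 of endoderm, all 6 of neural tube and all 5 of paraxial mesoderm were measured. None of these stood at 0 in every library. That is a low bar, as 18924 to 19347 of the 24098 genes were above 0 in each library. The paraxial marker MESP2 averaged only 0.513 FPKM. The axial mesoderm list includes SHH, FOXA2 and NOTO, so it is not separate from the genes described here. The largest difference between libraries, a first principal component with 50.8% of the variance, did not follow the treatment. It placed ZnO 1 (36.3) and control 2 (23.4) at an end, control 1 (2.61) between, and ZnO 2 (-17.5), ZnO 3 (-28.9) and control 3 (-16.0) at the other end. The second component, with 20.6% of the variance, separated the groups, with ZnO 1 to 3 at -20.3, -6.83 and -15.8 and control 1 to 3 at 13.3, 15.3 and 14.4. In bulk RNA, fewer cells of a type and less RNA per cell cannot be told apart.

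None of the 9 genes differed between ZnO-treated and control embryos beyond the spread between libraries. In the test across all genes (limma on log2(FPKM + 1), two-sided, Benjamini-Hochberg adjusted over 13311 genes, threshold 0.05), 0 of 9 passed and 0.0% of all genes passed. Before adjustment, 0 of the 9 had p under 0.05, against 5.66% of all genes, and limma-voom on reads recovered from the values also called 0 genes after adjustment. Single libraries moved the number behind that share, 754 genes, to 389 without control 1, 413 without control 2 and 1944 without ZnO 1, with 0 of the 9 genes among them in each case. The ZnO libraries lay all above the controls for 0 of the 9, against 5.6% of all genes tested, and all below them for 0, against 5.89%, together 11.5%. By means of log2 levels, 6 of the 9 were higher and 3 lower in treated embryos, where 43.9% of all genes were higher and 56.1% lower, and the median log2 fold change was 0.07, against -0.03 over all genes tested. Without ZnO 1 this median of the 9 was -0.0075, and without control 3 it was 0.026. With 3 libraries a group, the smallest p an exact two-sided permutation test can give is 0.1, and the 9 genes gave 0.2 to 0.8.

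**Figure D1:**
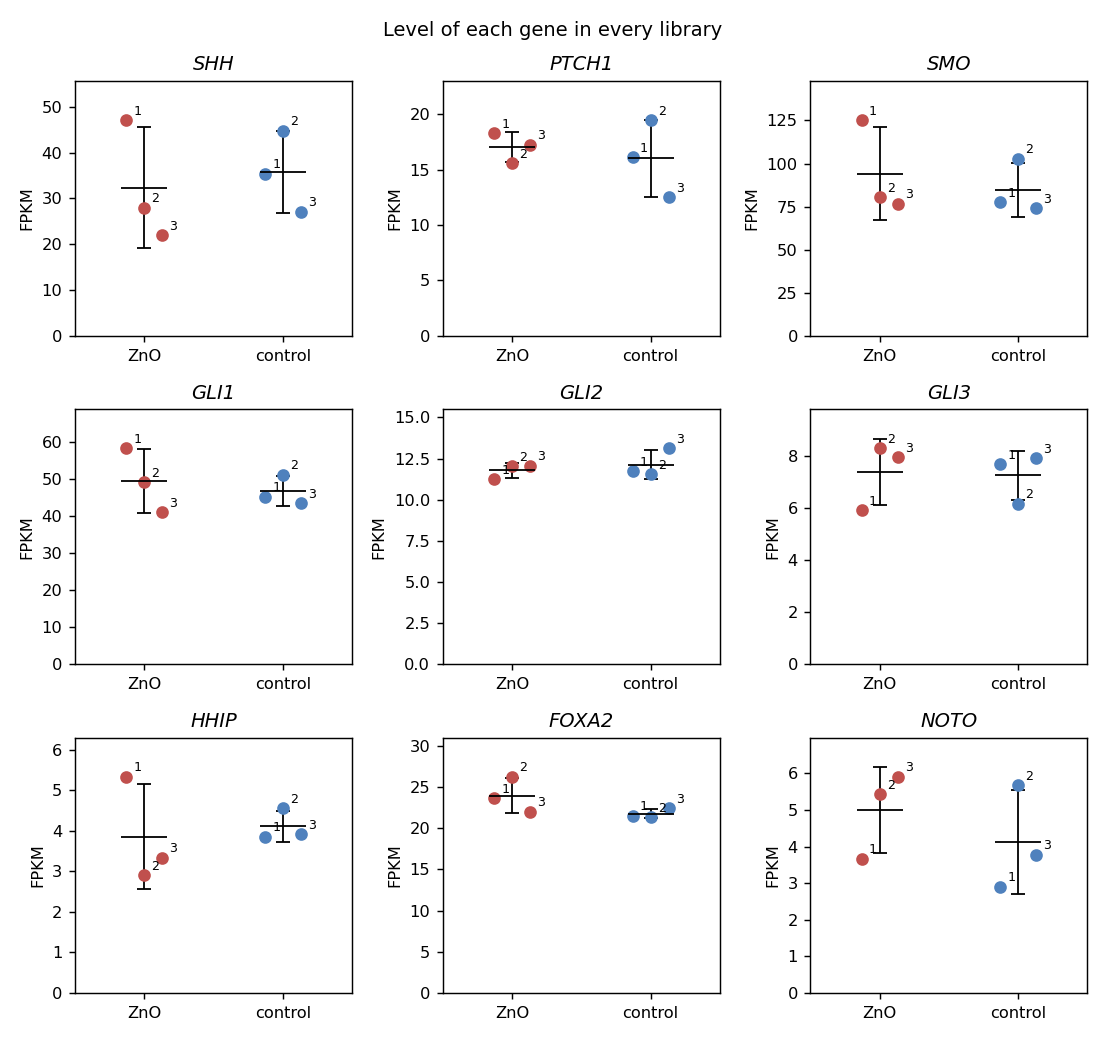
FPKM of each of the 9 genes in the 3 ZnO libraries (red, left) and the 3 control libraries (blue, right), numbered by replicate, with the group mean as a horizontal line and its SD as the error bar. The groups overlap in every panel, and ZnO 1 and control 2 are the highest libraries for SHH, PTCH1, SMO, GLI1 and HHIP.

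SHH (gene ID 395615) encodes the secreted ligand. It had 47.1, 28.0 and 21.9 FPKM in ZnO 1, 2 and 3, against 35.4, 44.8 and 27.1 FPKM in control 1, 2 and 3. The highest and the lowest of the 6 values were both in treated libraries, and they differed 2.15-fold, the widest range among the 9 genes. Group means were 32.3 ± 13.1 FPKM in treated and 35.8 ± 8.85 FPKM in control embryos (SD, n = 3 each), with a log2 fold change of -0.18 ± 0.29 (SE) and a 95% interval of -0.86 to 0.50 (limma adjusted p = 0.975). Without ZnO 1 the log2 fold change was -0.48, and without ZnO 3 it was 0.05.

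PTCH1 (gene ID 395806), the SHH receptor, had 18.3, 15.6 and 17.2 FPKM in the ZnO libraries and 16.1, 19.5 and 12.5 FPKM in the controls. The controls held both the highest and the lowest value, and all treated libraries lay between them. The log2 fold change was 0.10 ± 0.18 with an interval of -0.31 to 0.51 (limma adjusted p = 0.975).

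SMO (gene ID 395949), the membrane protein that passes the signal on, was the most abundant of the 9. It had 125, 80.4 and 76.8 FPKM in the ZnO libraries and 77.5, 103 and 74.1 FPKM in the controls. ZnO 1 stood highest and control 2 second, while the other 4 libraries lay between 74.1 and 80.4 FPKM, treated and control alike. The log2 fold change was 0.13 ± 0.23, with an interval of -0.41 to 0.67, and it was -0.09 without ZnO 1.

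Of the transcription factors, GLI1 (gene ID 396045), an activator whose own transcription follows pathway activity, had 58.3, 49.2 and 41.1 FPKM in the ZnO libraries and 45.2, 51.2 and 43.6 FPKM in the controls. The treated libraries spread on both sides of the controls. The log2 fold change was 0.07 ± 0.17, with an interval of -0.32 to 0.47, and -0.05 without ZnO 1. GLI2 (gene ID 395956), the main activator early in the response in mouse, was the steadiest of the 9. It had 11.2, 12.0 and 12.1 FPKM in the ZnO libraries and 11.7, 11.6 and 13.1 FPKM in the controls, a 1.17-fold range. Its interval, -0.33 to 0.26 around -0.04, was the narrowest of the 9. GLI3 (gene ID 420769), which acts mostly as a repressor where SHH is low, had 5.93, 8.30 and 7.96 FPKM in the ZnO libraries and 7.69, 6.17 and 7.92 FPKM in the controls. Here ZnO 1 and control 2 were the lowest libraries, and the other 4 lay between 7.69 and 8.30 FPKM. Its log2 fold change was 0.02, with an interval of -0.37 to 0.41.

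HHIP (gene ID 422460), the membrane-bound antagonist, was close to NOTO at the bottom of the range of levels. It had 5.33, 2.91 and 3.33 FPKM in the ZnO libraries and 3.85, 4.55 and 3.92 FPKM in the controls. ZnO 2 and ZnO 3 lay below every control and ZnO 1 above every control, so the treated group alone spanned the whole range. The log2 fold change was -0.10 ± 0.20, with an interval of -0.57 to 0.36, and -0.31 without ZnO 1.

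FOXA2 (gene ID 395539) had 23.7, 26.3 and 22.0 FPKM in the ZnO libraries and 21.5, 21.4 and 22.4 FPKM in the controls. ZnO 3 lay within the controls and ZnO 1 and ZnO 2 above them. Group means were 24.0 ± 2.14 and 21.8 ± 0.576 FPKM in treated and control embryos (SD, n = 3 each), a log2 fold change of 0.13 ± 0.14 with an interval of -0.18 to 0.44 and an exact permutation p of 0.2. NOTO (gene ID 396302) had 3.67, 5.43 and 5.90 FPKM in the ZnO libraries and 2.90, 5.68 and 3.77 FPKM in the controls. ZnO 2, ZnO 3 and control 2 formed the upper part of its range and the other 3 libraries the lower. These values rest on 120, 184 and 196 reads in ZnO libraries and on 95, 185 and 134 reads in controls. The exact Poisson 95% interval of the highest, ZnO 3, was 5.11 to 6.79 FPKM and that of the lowest, control 1, was 2.35 to 3.54 FPKM, which covers counting error only. These libraries were singled out as the extremes of the 6. Its log2 fold change of 0.25 ± 0.24 was the largest of the 9 and had an interval of -0.30 to 0.79 (limma adjusted p = 0.972). The chicken has a second gene of this kind, GNOT2 (gene ID 396117), at 2.08, 2.59 and 3.11 FPKM in the ZnO libraries and 2.15, 2.36 and 4.27 FPKM in the controls. Reads shared by NOTO and GNOT2 could have affected either level, and how such reads were counted is not stated.

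FPKM is scaled to the length of each gene model, so levels can be set in order. The order holds only as far as those models are complete, which was not checked. By the mean over the 6 libraries the order was SMO (89.5 FPKM), GLI1 (48.1), SHH (34.0), FOXA2 (22.9), PTCH1 (16.5), GLI2 (12.0), GLI3 (7.33), NOTO (4.56) and HHIP (3.98). SMO exceeded GLI1 in every library with ranges that did not overlap, and the same held for FOXA2 over PTCH1, GLI2 over GLI3 and GLI3 over NOTO. GLI1 was above SHH in all 6 libraries, although their ranges overlapped. SHH was above FOXA2 in 5 of 6 libraries and PTCH1 above GLI2 in 5 of 6. NOTO and HHIP could not be ordered, with NOTO higher in 3 of 6.

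The 9 genes differed from each other in how they followed the main axis between libraries, a pattern that was noticed in these values and is given without a test. ZnO 1 and control 2 were the 2 highest libraries for SHH, PTCH1, SMO, GLI1 and HHIP, that is for 5 of 9 genes, against 19.7% of all genes tested. They were the 2 lowest for GLI2 and GLI3, 2 of 9 against 25.6% of all genes. FOXA2 and NOTO did neither. In log2 units around the mean of the 6 libraries, SHH stood at 0.51 in ZnO 1 and 0.44 in control 2 and at -0.56 in ZnO 3. SMO stood at 0.51 in ZnO 1 and 0.23 in control 2, and GLI3 at -0.26 and -0.21 in these 2 libraries. ZnO 1 also had the lowest sum of FPKM, 480047, against 531480 to 559992 in the other libraries at like depth. The part of that axis in the levels of these genes was not tested.

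**Figure D2:**
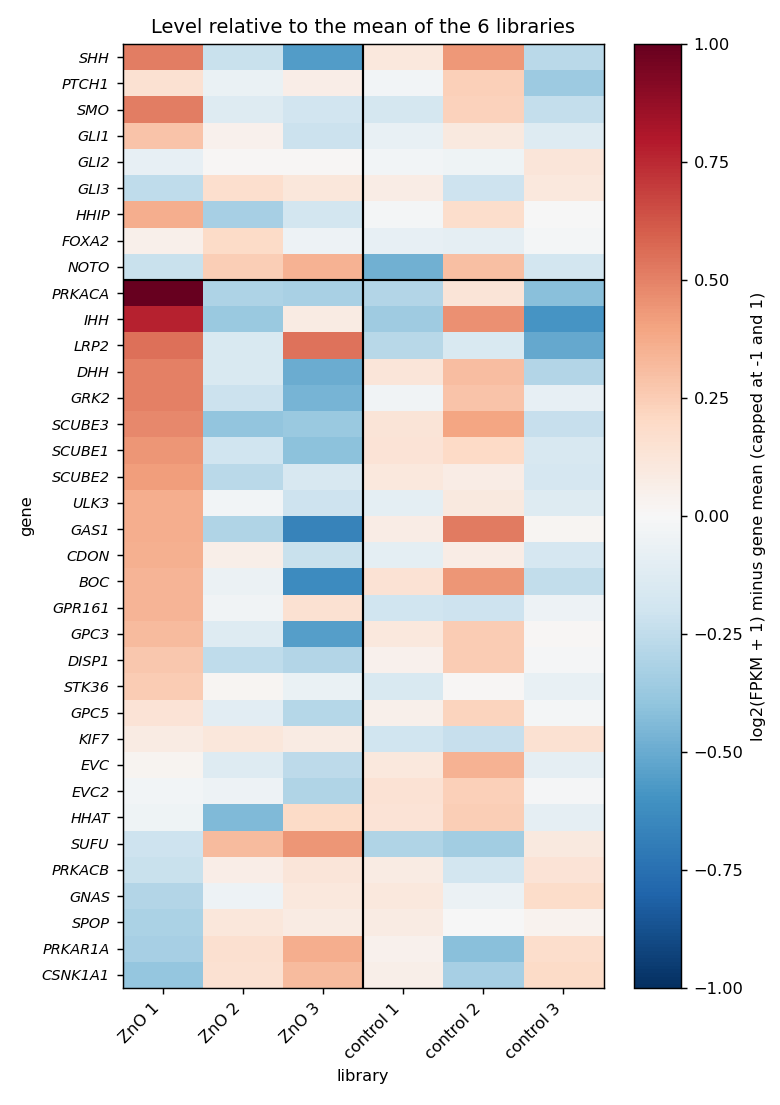
Log2(FPKM + 1) of each gene minus its mean over the 6 libraries, with ZnO 1 to 3 left of the vertical line and control 1 to 3 right of it. The 9 genes are above the horizontal line and 27 of the 28 other pathway genes below it, sorted by ZnO 1. SHH and SMO are red in ZnO 1 and control 2, where GLI3 is blue.

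Ratios within a library cancel the scaling between libraries. GLI1 over GLI3 was 9.83, 5.93 and 5.16 in the ZnO libraries and 5.88, 8.31 and 5.50 in the controls. The balance of these transcripts therefore differed most between ZnO 1 and ZnO 3, within the treated group. PTCH1 over SHH, a target set against its ligand, was 0.388, 0.557 and 0.785 in the ZnO libraries and 0.455, 0.435 and 0.462 in the controls. The controls were within a narrow band for this ratio, with treated libraries on both sides of it. GLI1 over SHH, another target set against the ligand, had no such band. It was 1.24, 1.76 and 1.87 in the ZnO libraries and 1.28, 1.14 and 1.61 in the controls. The ratios shown were picked after values were seen, and others were computed that are not given here.

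**Figure D3:**
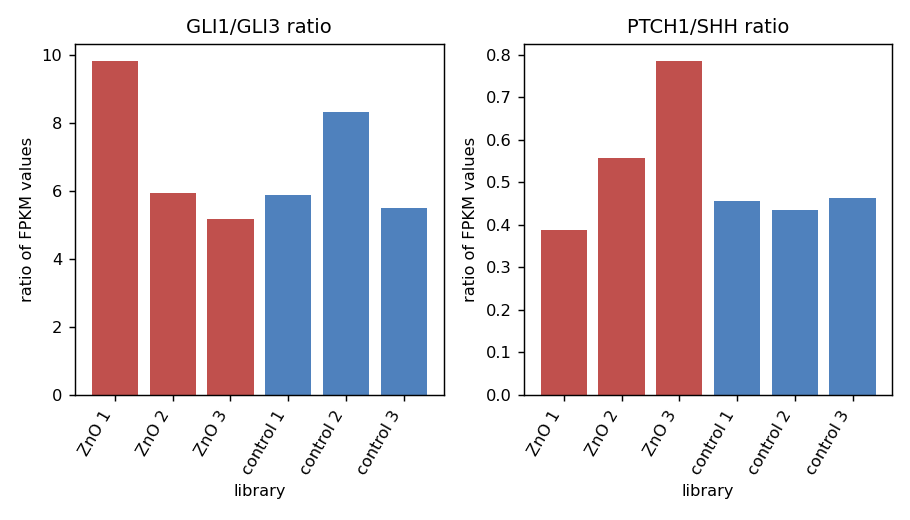
Ratios of FPKM values within each library for GLI1 over GLI3 and PTCH1 over SHH, with ZnO libraries in red on the left and controls in blue on the right. GLI1 over GLI3 is highest in ZnO 1 (9.83) and control 2 (8.31), and PTCH1 over SHH is within 0.435 to 0.462 in controls and from 0.388 to 0.785 in ZnO libraries.

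PTCH1 is the only gene of the 9 on the Z chromosome in the RefSeq table. In birds males carry a pair of Z chromosomes and females a Z and a W, and the Z is only partly compensated for dose. The summed level of 35 W-linked genes, which only females carry, was 707, 1101 and 876 FPKM in ZnO 1, 2 and 3 and 821, 425 and 1194 FPKM in control 1, 2 and 3. PTCH1 was highest in control 2, where the W sum was lowest, and lowest in control 3, where the W sum was highest. The libraries between followed the same inverse order except that ZnO 3 and control 1 changed places. Control 2 and ZnO 1, with the lowest W sums, also stood at an end of the first principal component (23.4 and 36.3). Over 556 Z-linked genes the median deviation in log2 units was -0.16, -0.08 and 0.05 in ZnO 1, 2 and 3 and 0.12, 0.14 and -0.02 in control 1, 2 and 3, so Z-linked genes as a whole did not keep the order of PTCH1. The part of the sex mix in the level of PTCH1 was not tested.

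**Figure D4:**
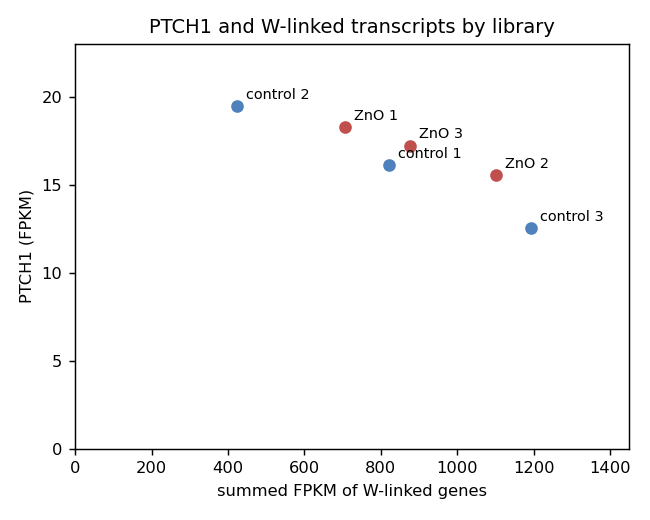
PTCH1 level in FPKM against the summed FPKM of 35 W-linked genes in each of the 6 libraries, ZnO in red and control in blue. PTCH1 runs from 19.5 FPKM in control 2, at a W sum of 425, to 12.5 FPKM in control 3, at a W sum of 1194.

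Because SHH and FOXA2 are also transcribed in the endoderm, the endoderm markers are set beside them. Their sum over 8 measured genes was 8146, 3569 and 5841 FPKM in the ZnO libraries and 6714, 9532 and 4080 FPKM in the controls, most of it from the secreted proteins APOA1 and TTR. ZnO 1 and control 2 were highest, as they were for SHH, but ZnO 3, lowest for SHH, lay above ZnO 2 and control 3. IHH, a second ligand gene, active in the endoderm, had 20.5, 8.82 and 12.4 FPKM in the ZnO libraries and 8.93, 16.4 and 7.43 FPKM in the controls. Among the axial mesoderm markers that are not in the 9, TBXT (brachyury) had 16.5, 17.6 and 21.0 FPKM in the ZnO libraries and 15.8, 15.6 and 13.4 FPKM in the controls. Every treated library was above every control, as for 5.6% of all genes tested. Its log2 fold change of 0.28 ± 0.15 did not pass (limma adjusted p = 0.943). CHRD, which encodes the BMP antagonist chordin, had 83.2, 52.7 and 42.8 FPKM in the ZnO libraries and 62.0, 92.3 and 51.0 FPKM in the controls, with the order of libraries close to that of SHH. NOG, the remaining marker of that list, had 16.1, 14.3 and 7.70 FPKM in the ZnO libraries and 13.4, 16.8 and 10.8 FPKM in the controls. Its log2 fold change was -0.13, and ZnO 1 and control 2 were its highest libraries. The part of the amount of endoderm or notochord in these levels was not tested.

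The genes whose levels ran most like SHH over the 6 libraries, among 9571 genes of at least 5 FPKM, were NEMP1, a nuclear envelope gene, the type I collagen gene COL1A2 and VWA5B1. Their likeness, as Pearson's r over 6 libraries, was 0.999, 0.998 and 0.998, but 1147 of these genes had r above 0.9 with SHH, and the same libraries and depths lie behind all of them. For PTCH1 the nearest were the cytochrome P450 gene CYP2J22 (r = 0.983), MIR1715 (0.977) and the lipase gene ABHD6 (0.972), and 53 genes had r above 0.9.

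Of 28 other pathway genes tested, 0 passed in either direction in the limma test across all genes, with 12 higher and 16 lower by mean and a median log2 fold change of -0.05 (0.047 without ZnO 3, -0.098 without ZnO 1). Groups did not overlap for 3 of 28, against 11.5% of all genes. Before adjustment, 1 of 28 had p under 0.05, no larger a share than the 5.66% of all genes. This 1 gene was LRP2, an endocytic receptor that binds SHH in the neural tube of the mouse, at 21.5, 12.9 and 21.5 FPKM in the ZnO libraries and 11.7, 12.8 and 9.82 FPKM in the controls (log2 fold change 0.63 ± 0.22, limma adjusted p = 0.827). SUFU, which holds GLI proteins back, had 24.0, 35.1 and 38.3 FPKM in the ZnO libraries and 22.5, 21.7 and 29.9 FPKM in the controls. ZnO 1 stood with the controls and the other 2 treated libraries above them (log2 fold change 0.37 ± 0.21). GPR161, a ciliary receptor that restrains the pathway, was at 5.45 ± 0.834 and 4.21 ± 0.315 FPKM in treated and control embryos, and the ciliary gene EVC2 at 2.71 ± 0.379 and 3.41 ± 0.388 FPKM.

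ZnO 1 and control 2 were the 2 highest libraries for 14 of these 28 genes, against 19.7% of all genes, and the 14 included the ligands DHH and IHH, the release genes DISP1, SCUBE1 and SCUBE3, and the co-receptors BOC, CDON and GAS1. They were the 2 lowest for 5 of 28, a smaller share than the 25.6% of all genes. Kinase genes of the pathway stood on both sides, PRKACB and CSNK1A1 among the 5 and PRKACA, GRK2 and ULK3 among the 14. PRKACA, a catalytic subunit gene of protein kinase A, had 33.3, 10.9 and 10.8 FPKM in the ZnO libraries and 11.0, 15.1 and 10.1 FPKM in the controls. Of 18 cilium genes, of transport and of structure, they were the 2 highest for 2 and the 2 lowest for 9, including IFT88 with 3.25, 6.04 and 5.77 FPKM in the ZnO libraries and 6.09, 4.35 and 6.13 FPKM in the controls. In the comparison of treatment, 0 of these 18 passed, with 9 higher and 9 lower and a median log2 fold change of -0.01 (0.060 without ZnO 1). KIF3A, a motor subunit of the cilium, was at 9.56 ± 1.27 FPKM in treated and 7.97 ± 1.04 FPKM in control embryos, IFT57 at 14.7 ± 2.21 and 16.8 ± 0.999 FPKM, B9D1 at 3.86 ± 0.460 and 3.42 ± 0.134 FPKM and TMEM67 at 2.42 ± 0.631 and 2.88 ± 0.637 FPKM (SD, n = 3 each).

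Among 19 other midline and anterior genes tested, 11 were higher and 8 lower by mean, 0 passed, and the median log2 fold change was 0.16, which was 0.0064 without ZnO 1 and 0.073 without control 3. Before adjustment, 3 had p under 0.05, all higher, against 3.06% of all genes higher at that level, and groups did not overlap for 4 of 19 against 11.5%. NTN1, which encodes the guidance molecule netrin made by the floor plate, had 27.8, 27.1 and 23.8 FPKM in the ZnO libraries and 19.0, 18.0 and 12.7 FPKM in the controls. Treated and control libraries did not overlap (log2 fold change 0.65 ± 0.18, limma adjusted p = 0.801). LMX1B, a homeobox gene of the midbrain and roof plate, had 3.76, 6.99 and 5.11 FPKM in the ZnO libraries and 2.40, 1.92 and 2.25 FPKM in the controls, again without overlap (log2 fold change 0.95 ± 0.21, limma adjusted p = 0.746). The forebrain gene SIX3, at 40.2 ± 8.96 FPKM in treated and 20.5 ± 7.94 FPKM in control embryos, completes these 3.

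Genes linked to SHH in the ventral neural tube and the sclerotome gave 0 of 21 past the threshold, with 11 higher and 10 lower. The median log2 fold change was 0.09 (-0.012 without ZnO 2, 0.00029 without control 2). This list mixes genes that SHH induces with genes it limits, such as PAX6, and with cell cycle genes. Its counts and median therefore give no direction of a response to SHH. Before adjustment, 3 of the 21 were higher, PAX6 among them, and 1 lower at p under 0.05, against 3.06% and 2.61% of all genes. Treated libraries lay all above the controls for 1 of 21 and all below for 1, against 5.6% and 5.89% of all genes. NKX2-2, which marks the cells next to the floor plate, had 7.45, 8.83 and 7.38 FPKM in the ZnO libraries and 3.14, 5.51 and 6.74 FPKM in the controls. All treated libraries were above all controls, although control 3 came close (log2 fold change 0.58 ± 0.23, limma adjusted p = 0.863). OLIG2, a motor neuron progenitor gene, had 18.1, 29.3 and 22.0 FPKM in the ZnO libraries and 9.19, 15.7 and 18.9 FPKM in the controls, and PAX6, which SHH keeps to intermediate levels of the tube, was at 23.8 ± 5.41 and 16.1 ± 2.83 FPKM in treated and control embryos. Both overlapped between groups. Of the hedgehog targets in mesenchyme, FOXL1 was lower in every treated library, at 4.20 ± 0.337 and 5.89 ± 0.426 FPKM in treated and control embryos (log2 fold change -0.40 ± 0.14, limma adjusted p = 0.827), and FOXF1 stood at 41.6 ± 3.63 and 42.2 ± 1.25 FPKM. The ventral gene NKX6-1 was near level, at 61.3 ± 10.4 and 62.6 ± 11.3 FPKM in treated and control embryos. The sclerotome genes NKX3-2, PAX1, PAX9 and FOXC2 had log2 fold changes of -0.62, -0.32, -0.18 and -0.15 and overlapped between groups. The summed level of 6 neural tube markers, PAX6 among them, was 165, 173 and 151 FPKM in the ZnO libraries and 124, 134 and 155 FPKM in the controls. NES, the most abundant of them, was level at 84.1 and 84.2 FPKM in treated and control embryos. ZIC1 was lower in treated embryos, at 1.25 and 1.47 FPKM. SOX2 (16.1 and 10.5 FPKM), SOX3 (29.1 and 18.6) and SOX1 (8.80 and 6.86) were higher in treated embryos, as was PAX6. The summed level of 5 paraxial mesoderm markers was 63.5, 73.5 and 60.2 FPKM in the ZnO libraries and 81.2, 96.7 and 86.8 FPKM in the controls. These 5 did not move together. Means in treated and control embryos were 34.1 and 50.6 FPKM for TCF15, 14.1 and 21.5 for MEOX1 and 10.9 and 11.7 for PAX3. They were 6.14 and 3.90 FPKM for TBX6, higher in treated embryos, and 0.524 and 0.502 for MESP2. The part of the amount of neural and mesodermal tissue in the levels of the ventral and sclerotome genes was not tested.

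On the dorsal side, where SHH is low, 6 of 12 genes were higher and 6 lower, 0 passed, and the median log2 fold change was -0.04, which turned to 0.0085 without ZnO 3 and 0.014 without control 2. Before adjustment 1 of 12 had p under 0.05, against 5.66% of all genes, and groups did not overlap for 2 of 12, against 11.5%. The gene under 0.05 was WNT3A, a dorsal midline and tail bud ligand gene, at 4.86 ± 1.51 FPKM in treated and 2.85 ± 0.459 FPKM in control embryos without overlap. MSX1, a homeobox gene of the dorsal tube and other tissues, was at 154 ± 19.7 and 190.3 ± 18.1 FPKM, also without overlap, and neither passed (limma adjusted p = 0.861 and 0.943). ZIC2, a zinc finger gene of the dorsal tube, was at 44.7 ± 13.7 and 29.6 ± 11.0 FPKM in treated and control embryos and overlapped between groups.

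**Figure D5:**
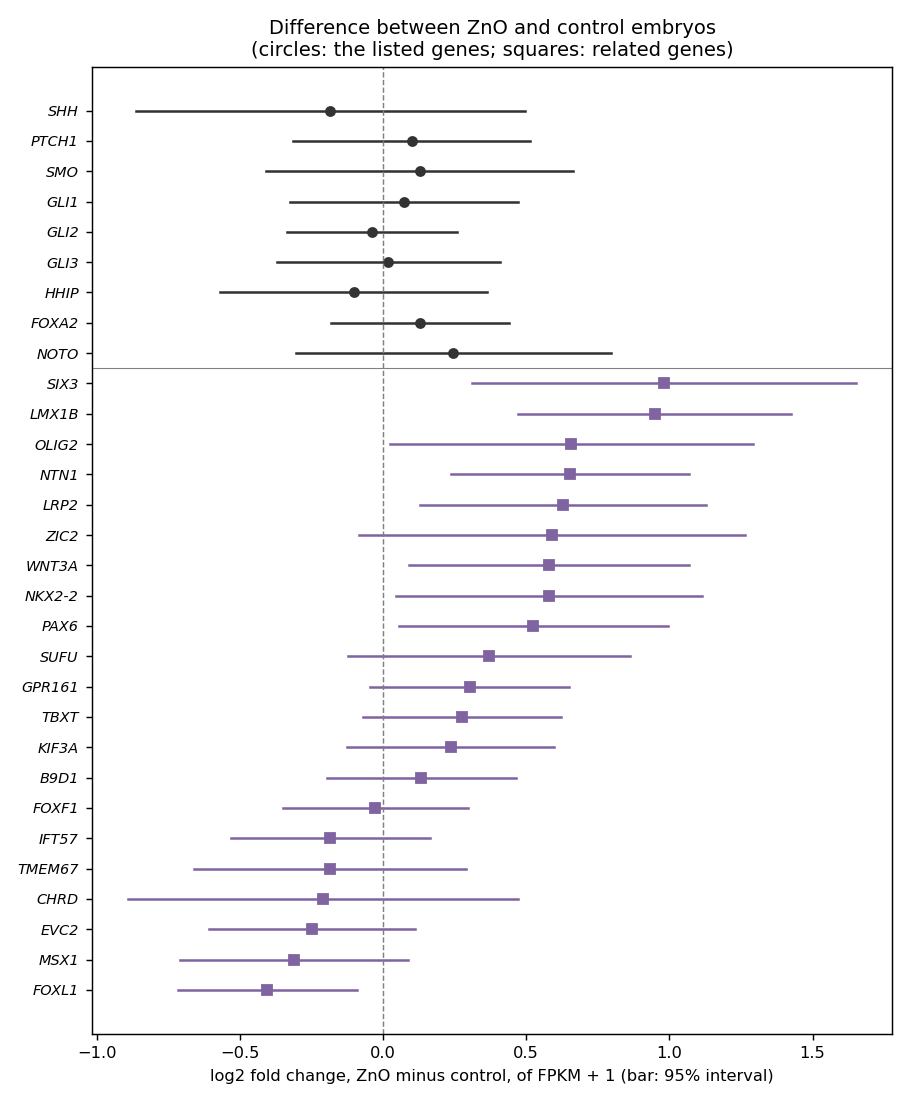
Log2 fold changes (ZnO minus control, of FPKM + 1) with 95% intervals from limma for the 9 genes (circles, above the line) and for 21 related genes (squares, sorted). All 9 intervals include 0, from -0.18 for SHH to 0.25 for NOTO at their centres. Some single intervals below the line exclude 0, but none of those genes passed after adjustment over all genes. Most of the related genes were picked for the smallest p of their list in this same fit, which favours such intervals.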

How the data were processed

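RNA of 3 ZnO-treated and 3 control whole-embryo samples was measured. Per the labels' protocols, Trizol RNA (1 µg) was made into TruSeq libraries and read in pairs of 125 or 150 bp. The submitters' processing notes name HTSeq 0.6.1, TopHat2 2.0.12 and Bowtie2 2.2.3, and as build only mm10, a mouse build, whereas the RefSeq table of chicken assembly GRCg7b, used here for symbols and for the W and Z chromosomes, held 19704 of 24098 gene numbers (81.8%). For the use of strand, no source was found among those used here. The deposited files hold the authors' FPKM values. Solving the steps of these values gave whole reads (within 0.005) for all 13311 genes tested, those that averaged 1 FPKM or more.

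Log2(FPKM + 1) was tested with limma 3.58.1 (R 4.3.3; trend, empirical Bayes). The test was also run on simulated data with independent noise in each gene and library. That simulation lacked the main axis shared by the real libraries, so it cannot show how the test behaves with such an axis. The pseudocount understates the change of low genes. The 9 genes, the lists and the markers were chosen with earlier results of these data known; the W-linked sum, the ratios and the pattern of ZnO 1 and control 2 were added after values were seen. Related genes were named as the 4 of each list with the smallest p, plus NKX2-2, FOXF1, TBXT and CHRD; some genes counted in the lists are not reported here by name. Lists were matched by symbol, and unmatched entries and promoter sequences were not analysed here. Exact intervals cover counting error only.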

Additional observations from a re-analysis of the deposited data

How the results depend on the processing

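None of the 9 genes passed under any of the 14 alternatives. Over all genes, 0 passed in the main test, 0 to 4 when each library was left out (4 without ZnO 1, which were not among the genes described) and 200 with gene-by-gene sample weights, chosen after the data were seen because the planned weights did not converge. With those weights 1 gene of the lists, LMX1B, passed (adjusted p = 0.0179). Deviations of same-numbered libraries correlated at -0.03, -0.37 and 0.41 for numbers 1, 2 and 3, against 0.58 for ZnO 1 with control 2. The labels state no pairing, and with 3 libraries a group these values cannot decide whether the numbers pair libraries. With the replicate block 0 genes passed. Leaving out each library gave log2 fold changes of -0.48 to 0.051 for SHH, -0.056 to 0.24 for PTCH1, -0.094 to 0.27 for SMO, -0.049 to 0.20 for GLI1, -0.069 to 0.015 for GLI2, -0.081 to 0.15 for GLI3, -0.31 to 0.038 for HHIP, 0.07 to 0.19 for FOXA2, 0.07 to 0.46 for NOTO, -0.090 to 0.032 for FOXF1 and -0.47 to 0.025 for CHRD. GLI2 turned to 0.019 with TPM scaling and 0.012 with those weights, and FOXF1 to 0.033 with TPM scaling. The direction of 7 of the 9 genes, all but FOXA2 and NOTO, thus turned without a single library. List medians moved without single libraries, to between -0.0075 and 0.12 for the 9 genes, -0.098 and 0.047 for other pathway genes, -0.073 and 0.060 for cilium genes, 0.0064 and 0.28 for the midline list, -0.012 and 0.15 for ventral targets and -0.13 and 0.014 for dorsal genes. With TPM scaling they turned to 0.0064, 0.042 and 0.021 for other pathway, cilium and dorsal genes, where the median of all genes turned to 0.023. Genes at unadjusted p under 0.05, 754 in the main test, numbered 389 to 1944 without single libraries and 1153 with no filter on low values. With the gene-by-gene weights they numbered 3122, and 1 of the 9, NOTO, was among them. The log2 fold change of NOTO was 0.58 with these weights (limma adjusted p = 0.117), against 0.25 in the main test.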
